A study of Mus musculus with 34 samples.

Results

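Cumulus cells (CCs) are the granulosa-derived somatic cells that surround the oocyte in the antral follicle. They are coupled to the oocyte by gap junctions, metabolize glucose for it, respond to FSH and LH, and expand within a secreted matrix before ovulation. A high-fat diet (HFD) makes mice obese and hyperleptinemic over weeks, and CC transcripts are one readout of what the follicle receives. The question here is whether the change that HFD makes in CCs after 4 weeks is the same change that it makes after 16 weeks, that is, for which genes the diet response turns, fades or appears with duration.

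The comparison used 23 of the 34 RNA-seq libraries of the series, all from CCs of superovulated C57BL/6J females that started the diet at 8 weeks of age. There were 5 libraries of mice on chow diet (CD, 11% of energy from fat) for 4 weeks, 5 of mice on HFD (58% of energy from fat) for 4 weeks, 6 on CD for 16 weeks and 7 on HFD for 16 weeks. Mice on HFD for 16 weeks that gained little weight and leptin-injected mice with their controls make up the other 11 libraries and were not used. Duration and age cannot be told apart, since mice were 12 weeks old after 4 weeks of diet and 24 weeks old after 16. For each gene the interaction is the log2 HFD to CD ratio at 16 weeks minus that at 4 weeks, so a positive value means that the HFD response lay higher at 16 weeks than at 4. It was tested with edgeR's quasi-likelihood test on the deposited counts and called at a Benjamini-Hochberg adjusted p under 0.05. Each library holds the CCs of 1 cumulus-oocyte complex, and the study's methods describe CCs as collected per animal, so each library was taken as 1 mouse, though the labels name no mouse. Levels are given as CPM, a library's counts over its total in the genes tested, after scaling by TMM factors, and each library is named by its replicate number.

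Libraries held 1330297 to 12641896 counts, with a median of 4148680. The cumulus and granulosa marker list summed to 1262 to 4812 CPM in the 23 libraries. Oocyte markers summed to at most 7.25 CPM in 22 libraries and to 640.5 CPM in 4-week HFD replicate 5. Theca and stroma markers, taken as 1 list, summed to at most 49.4 CPM, in a library of 16-week HFD, where the theca markers Cyp17a1 and Insl3 were at 0. Oviduct and surface epithelium markers summed to 125 to 797 CPM, and endothelial and blood markers to 9.77 to 232 CPM. The epithelium list and the endothelial and blood list were also highest in a library of 16-week HFD.

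The libraries labelled 16-week CD replicates 1 and 2 stood with the 4-week libraries and not with their own group. Their rank correlation with 4-week libraries had a median of 0.921, against 0.831 with the other 4 libraries of 16-week CD, and these 4 correlated with 16-week HFD at 0.948. The pair lay nearer to 4-week HFD, at mean correlations of 0.927 and 0.936, than to 4-week CD, at 0.889 and 0.892. These 16-week controls thus resembled the 4-week HFD group most, and they enter each 16-week diet difference with all 23 libraries. Within 4-week HFD, replicates 3, 4 and 5 were close to each other (0.983 to 0.987) and so were replicates 13 and 14 (0.978), while the correlation between these sets was 0.901 to 0.943. Replicate 11 of 4-week CD correlated with 4-week HFD at a median of 0.96 and with its own group at 0.909. Replicates 1 and 2 of 16-week CD correlated with each other at 0.989. The labels give no batch and no mouse for these sets, and no 2 libraries were identical. If the libraries of a near-identical set came from 1 mouse, they are not independent. The SEs and p-values given here would then be too small, and this was not tested. Because 16-week CD replicates 1 and 2 stood with the 4-week libraries, the fit was also run on the 21 libraries without them. It is called the 21-library fit, and its values stand beside the main results.

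**Figure D1:**
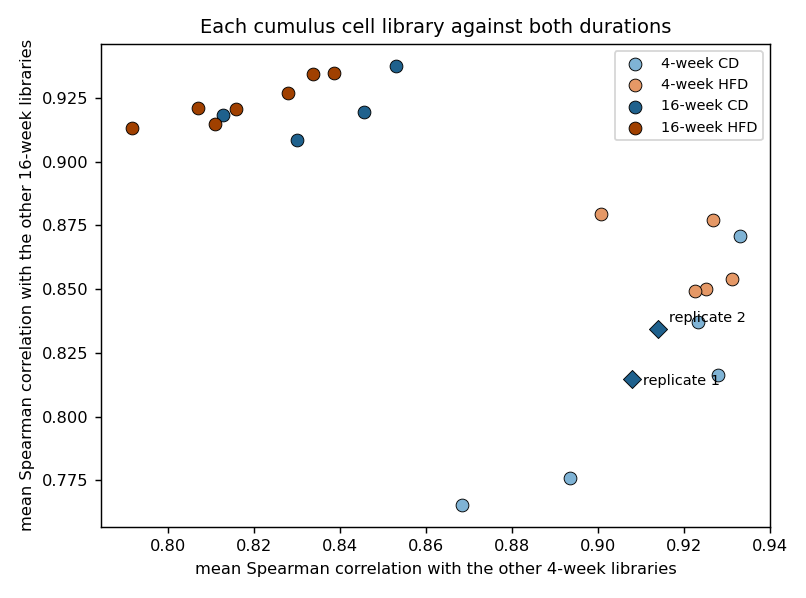
Mean Spearman correlation of each CC library with the other 4-week libraries (x axis) and with the other 16-week libraries (y axis), over log2 CPM of the genes tested. Diamonds are 16-week CD replicates 1 and 2, which lie among the 4-week libraries at the lower right, apart from the other 16-week libraries at the upper left.

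Of 12235 genes tested, 448 (3.66%) had a diet response that differed between the durations. The interaction was positive for 213 genes (1.74%) and negative for 235 (1.92%). Positive genes were 47.5% of those called, and 21.4% where libraries were scaled by total counts alone, which moved the median interaction of all genes from -0.0856 to -0.392. At 4 weeks alone HFD raised 181 genes (1.48%) and lowered 247 (2.02%), which is 3.5% of those tested. At 16 weeks it raised 234 (1.91%) and lowered 949 (7.76%), or 9.67%. In the 21-library fit (12280 genes) the interaction count was 89 (0.725%), with 65 positive (0.529%) and 24 negative (0.195%). The same fit called 889 genes (7.24%) at 4 weeks and 1 gene (0.00814%) at 16 weeks, beside 1090 genes with an unadjusted p under 0.05 at 16 weeks. Between 4 and 16 weeks, which also differ in age, 28.6% of genes changed in CD and 48% in HFD with all 23 libraries (3499 and 5877 genes). In the 21-library fit 5988 genes changed in CD and 6389 in HFD, of 12280, so the 2 diets lay closer together.

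The number called rested on many single libraries. Leaving out 4-week HFD replicates 3, 4 or 5 gave 116, 94 and 69 genes, and leaving out 4-week CD replicates 1, 2 or 8 gave 112, 96 and 86. Leaving out 16-week CD replicates 1 or 2 gave 140 and 123, and leaving out 16-week HFD replicates 12, 14, 15 or 16 gave 229, 228, 183 and 230. The count rose to 1204 without 4-week CD replicate 11 and to 1685 without 16-week CD replicate 9. The near-identical libraries were then summed (4-week HFD replicates 3, 4 and 5, 4-week HFD replicates 13 and 14, and 16-week CD replicates 1 and 2), leaving 19. In that fit edgeR called 0 genes, with 1438 of 12872 (11.2%) at an unadjusted p under 0.05. All 448 genes kept their sign and an unadjusted p under 0.05 there. They were picked on the same counts, so this is not independent support for the calls.

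**Figure D2:**
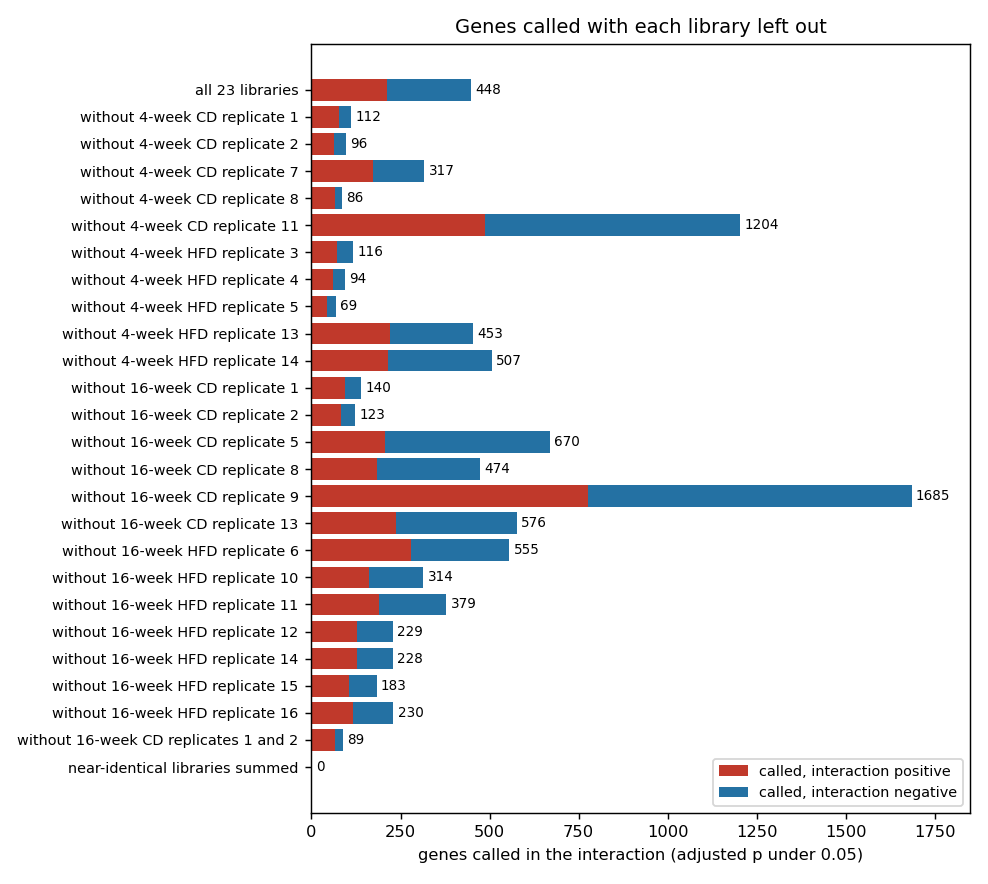
Genes called in the diet-by-duration interaction (x axis) in the fit of all 23 libraries, with each library left out, with 16-week CD replicates 1 and 2 both left out, and with near-identical libraries summed. Red and blue bars are positive and negative interactions, and the number at each bar is their sum, from 0 to 1685.

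For most of the genes called, the diet response had opposite signs at the 2 durations. This held for 427 of 448 genes (95.3%), against 47% of all genes tested. Genes with a large difference between the responses tend to be picked with opposite signs, so the share is a description of the genes called. Of the 448, 143 were also called at 4 weeks only, 177 at 16 weeks only, 5 at both and 123 at neither. In the 21-library fit 82 of 89 genes had opposite signs, 77 were called at 4 weeks only and 12 at neither. The fits shared 54 genes with a positive interaction, 25.4% of the 213 and 83.1% of the 65, and 15 with a negative one, 6.38% of the 235 and 62.5% of the 24. In the 21-library fit all 213 positive genes kept their sign, as did 234 of 235 negative ones, and the last was not tested there. The 2 fits share 21 libraries, so the kept signs are not independent support.

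Followed from one duration to the other, the genes that HFD changed kept their sign at shares from 47.4% to 59.2%. Of the 181 genes raised at 4 weeks, 56.4% were also positive at 16 weeks, against 49.9% of all genes, and of the 247 lowered, 47.4% were also negative, against 50.1%. Their median log2 differences were 1.22 and -1.50 at 4 weeks and 0.05 and 0.04 at 16 weeks. The shares of genes raised and lowered at 4 weeks were 50.4% and 45.1% in the 21-library fit. Of the 949 genes lowered at 16 weeks, 59.2% were also negative at 4 weeks, against 48.7% of all genes, and 6 of them were called lower at 4 weeks and 0 higher. Across all 12235 genes, which are not independent replicates, the log2 diet differences at 4 and 16 weeks had a Pearson r of 0.0682 and a Spearman rho of 0.0731, and in the 21-library fit these were 0.00442 and -0.0115.

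**Figure D3:**
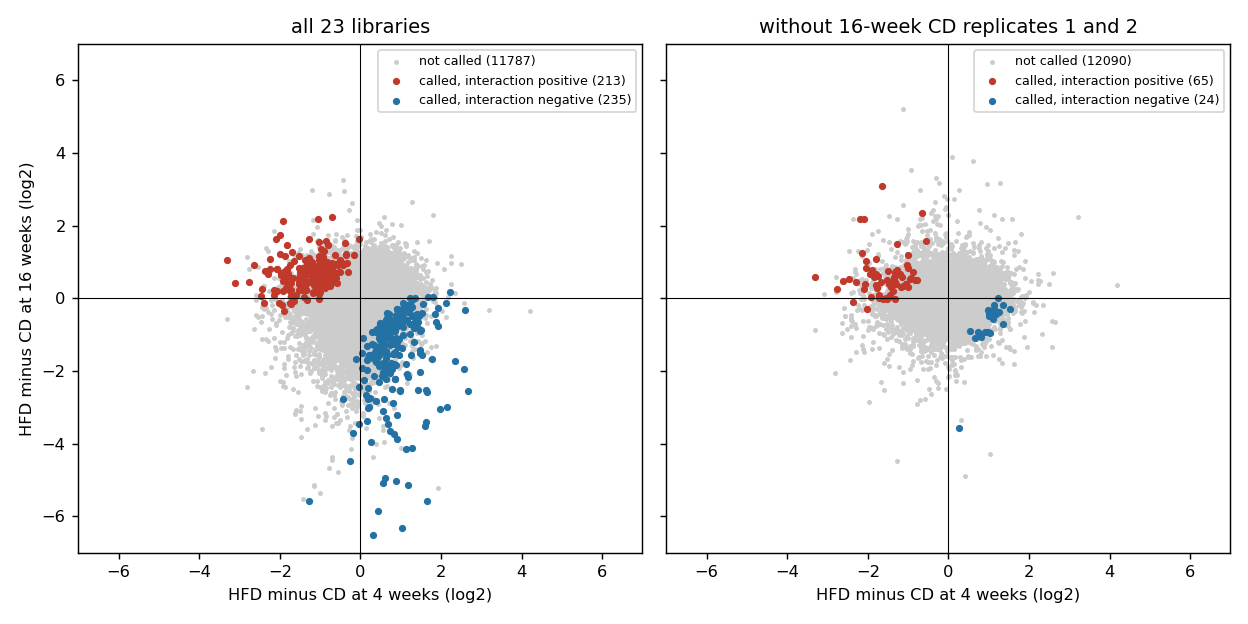
Log2 difference between HFD and CD at 4 weeks (x axis) and at 16 weeks (y axis) for each gene tested, with all 23 libraries (left) and without 16-week CD replicates 1 and 2 (right). Red and blue points are genes called with a positive and a negative interaction, 213 and 235 on the left and 65 and 24 on the right, and most lie in the upper left and lower right.

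In 5 genes HFD changed the level at both durations, in opposite directions, and all 5 fell at 4 weeks and rose at 16. They were Rhou, Nav1, Zbed6, Capn12 and Pkp4. All 5 were still called in the interaction and at 4 weeks in the 21-library fit, and none was called at 16 weeks. Rhou, a small GTPase that acts on the cytoskeleton, stood at 106, 185, 97.8, 115 and 60.8 CPM in 4-week CD and at 41.1, 48.0, 42.1, 56.3 and 35.9 in 4-week HFD. After 16 weeks Rhou stood at 26.9, 30.5, 60.4, 66.3, 89.0 and 83.4 CPM in CD and at 91.3 to 150 (median 106) in HFD. Neither pair of groups overlapped, which held for 6.49% of genes at 4 weeks and for 1.01% at 16 weeks. The log2 diet difference of Rhou was -1.33 at 4 weeks and 0.95 at 16 (0.62 in the 21-library fit), the interaction 2.28 ± 0.41 (SE, edgeR adjusted p = 0.00988), and it was 1.94 in the 21-library fit (adjusted p = 0.0142).

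Nav1, a microtubule-guiding protein that has 2 entries in the table, of which the one called is given, stood at 56.8 to 130 CPM in 4-week CD and at 36.3 to 60.4 in 4-week HFD. At 16 weeks its CD libraries read 56.5, 55.9, 61.5, 38.3, 104 and 101 CPM, and HFD ran from 88.7 to 219 (median 144). Its interaction was 2.10 ± 0.39 (edgeR adjusted p = 0.0137). Zbed6, a transcription factor derived from a transposon, read 229 to 372 CPM in 4-week CD against 148 to 187 in 4-week HFD, with no overlap. After 16 weeks Zbed6 read 182, 195, 319, 307, 468 and 433 in CD and 442 to 649 (median 563) in HFD, and the groups overlapped through replicate 9. The 16-week counts of Zbed6 ran close to those of Zc3h11a, described below, outside CD replicates 1 and 2. They were 1715 and 1641 in CD replicate 5 and 1995 and 1877 in HFD replicate 6, but 2574 and 1253 in 4-week CD replicate 1. Whether the 2 genes share reads was not tested, so they are not taken as separate results. Capn12, a calpain protease, fell from 5.05 to 18.2 CPM in CD to 2.85 to 4.15 in HFD at 4 weeks. Their interactions in the 21-library fit were 1.96 for Nav1, 1.47 for Zbed6 and 2.89 for Capn12 (adjusted p = 0.0358, 0.0358 and 0.0358).

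The genes with the smallest p among those that turned were Phox2a, Fads6, Zfhx3 and Unc13a, and all 4 were called in both fits. Fads6, a putative fatty acid desaturase, stood at 168, 254, 307, 283 and 120 CPM in 4-week CD and at 55.0, 64.2, 58.7, 85.5 and 60.5 in 4-week HFD. At 16 weeks CD read 114, 84.5, 88.3, 81.3, 140 and 88.6 CPM and HFD 69.6 to 246 (median 147). The 4-week groups did not overlap and the 16-week groups did. Its diet difference was -1.80 at 4 weeks and 0.68 at 16, and the interaction 2.48 ± 0.39 (edgeR adjusted p = 0.00407) was 2.48 in the 21-library fit as well (adjusted p = 0.0142).

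Phox2a, a homeodomain transcription factor best known from autonomic neurons, stood at 11.3 to 36.7 CPM in 4-week CD and at 2.44 to 5.21 in 4-week HFD. It stayed low at 16 weeks, at 2.98 to 5.57 in CD and 3.10 to 6.99 in HFD. Unc13a, which primes vesicles for release, did the same, with 27.5 to 66.3 CPM in 4-week CD, 12.7 to 14.4 in 4-week HFD, 10.7 to 22.9 in 16-week CD and 15.3 to 23.5 in 16-week HFD. Both are classed as turned by the sign of a 16-week difference that was not called, 0.45 and 0.23 on the log2 scale (0.27 and 0.02 in the 21-library fit). Zfhx3, a large zinc-finger homeodomain factor, was the reverse case, with most of its change at 16 weeks. It read 14.5 to 31.4 CPM in 4-week CD and 7.00 to 20.9 in 4-week HFD, then 15.8, 17.9, 36.4, 38.3, 72.9 and 41.2 in 16-week CD and 79.1 to 129 (median 107) in 16-week HFD. Its 16-week difference of 1.55 (edgeR adjusted p = 0.00743) was 1.19 and not called in the 21-library fit, where the groups still did not overlap.

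A response that faded, called at 4 weeks with no change of sign at 16, was seen for 14 genes with all libraries and for 7 in the 21-library fit. Vegfa, the growth factor that builds the follicle's capillary bed, fell at 4 weeks from 63.3, 93.0, 88.4, 147 and 54.9 CPM in CD to 18.4, 14.7, 15.6, 38.6 and 20.6 in HFD. The 16-week libraries of Vegfa read 34.7, 29.2, 37.9, 58.8, 54.4 and 37.1 CPM in CD and 23.2 to 51.1 (median 40.0) in HFD. Its 4-week difference was -2.03 (edgeR adjusted p = 0.00104), its 16-week difference -0.13, and the interaction 1.91 ± 0.40 (adjusted p = 0.0199). Ankrd40, an ankyrin-repeat protein, fell from 45.5 to 101 CPM in CD to 28.8 to 34.4 in HFD at 4 weeks and read 25.2 to 33.2 in CD and 21.6 to 36.9 in HFD at 16. Slc36a1, a proton-coupled amino acid transporter of the lysosome, fell from 18.9 to 39.3 CPM to 6.55 to 8.32 and then read 7.99 to 15.6 and 6.26 to 12.8.

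Abca6, a lipid-type ABC transporter, faded the other way. It rose from 2.37 to 8.53 CPM in 4-week CD to 13.1 to 39.3 in 4-week HFD and stood at 17.8 to 35.8 in 16-week CD and 14.5 to 36.8 in 16-week HFD. Its interaction of -2.04 ± 0.45 (edgeR adjusted p = 0.0229) was -1.83 in the 21-library fit and missed the threshold there (adjusted p = 0.053). In Vegfa, Ankrd40, Slc36a1 and Abca6 the 4-week groups did not overlap, and in each the median of 4-week HFD lay nearer to both 16-week medians than that of 4-week CD did. The small 16-week difference of Slc36a1, -0.15, was 0.09 in the 21-library fit.

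A response that appeared late, called at 16 weeks with the same sign at 4, was seen for 7 genes, all lower in HFD, and for none in the 21-library fit. Cxcr7, the scavenging chemokine receptor also named Ackr3, was the 1 gene whose 16-week difference was called in both fits. It read 19.1, 14.9, 16.0, 8.87, 13.9 and 13.9 CPM in 16-week CD and 0.605 to 3.11 (median 2.61) in 16-week HFD. At 4 weeks it read 2.72, 2.96, 5.56, 4.20 and 7.14 CPM in CD and 3.19, 3.50, 3.17, 2.03 and 5.16 in HFD. The 16-week groups did not overlap, and 16-week CD lay above every 4-week library. Its 16-week difference was -2.77 (edgeR adjusted p = 0.000431) and -2.64 in the 21-library fit (adjusted p = 0.00634), and its interaction of -2.35 ± 0.54 (adjusted p = 0.0248) was -2.22 there (adjusted p = 0.0581). Igfbp4, which binds insulin-like growth factors, read 72.8 and 57.9 CPM in 16-week CD replicates 1 and 2, 19.6 to 32.1 in the other 4 and 9.71 to 15.2 in 16-week HFD, so that its difference of -1.67 was -1.04 and not called without that pair.

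**Figure D4:**
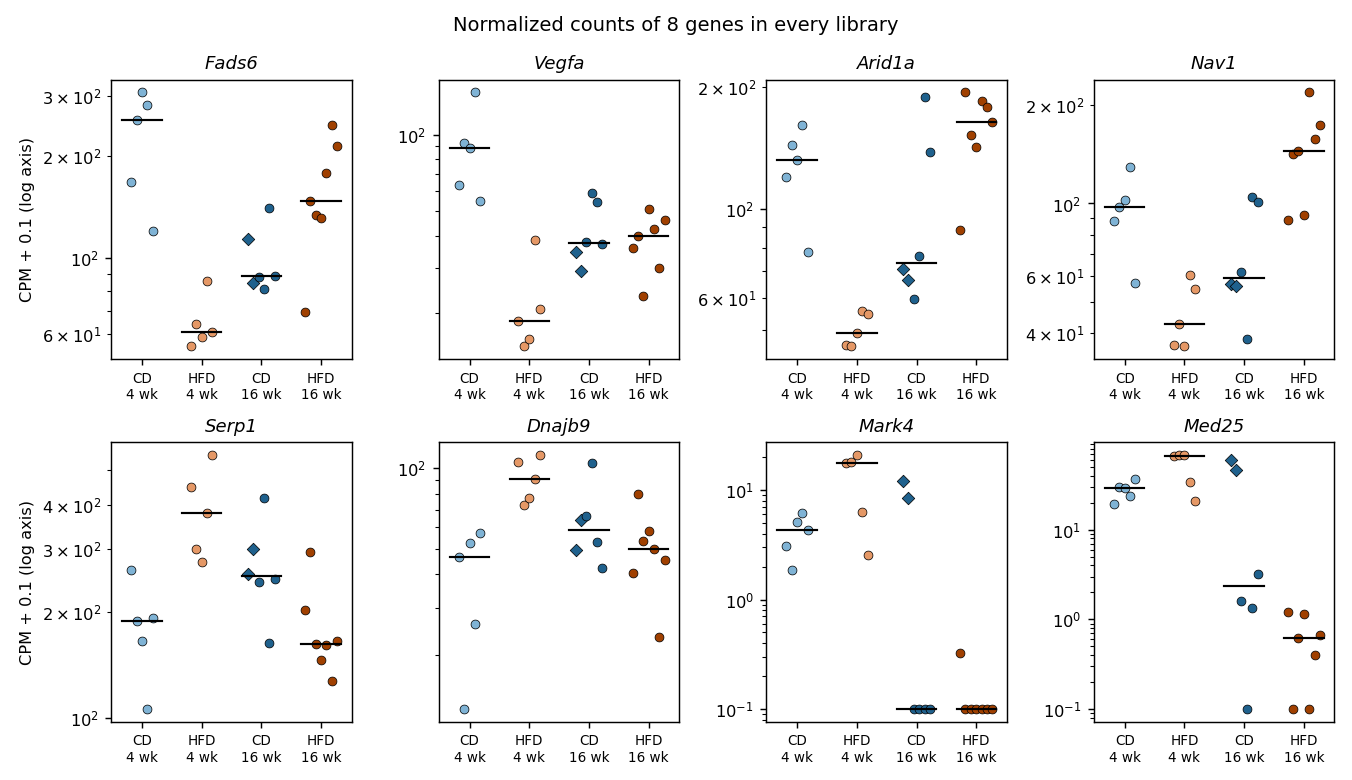
CPM plus 0.1 on a log axis in every CC library for 8 genes, by diet and duration, where points are libraries, diamonds are 16-week CD replicates 1 and 2 and bars are group medians. Fads6, Vegfa and Arid1a fall in 4-week HFD, Serp1 and Dnajb9 rise there, and Mark4 and Med25 are high at 16 weeks only in the diamonds.

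The largest negative interactions rested on a few libraries. The 10 most negative among well-covered genes were Mark4, Dyrk1b, Med25, Slc45a3, Anxa11, Ap2a1, Trp53i11, Zbed3, Sh3bp1 and Klhl11, and none was called in the 21-library fit. Zbed3 and Slc45a3 were also high in 4-week HFD replicate 5, the library with oocyte markers at 640.5 CPM. Zbed3 read 328 CPM there and 9.23 to 21.2 in the other 4 libraries of 4-week HFD, and Slc45a3 read 61.1 against 1.60 to 4.24. Without that library their interactions of -4.51 and -5.20 were -2.14 and -2.80, and neither was called. The part of oocyte RNA in them was not tested. Mark4, a microtubule-affinity kinase, had 52 and 63 reads in replicates 1 and 2, 0 reads in the other 4 libraries of 16-week CD, and 1 read in all 7 libraries of 16-week HFD. At 4 weeks it read 1.78 to 6.11 CPM in CD and 2.44 to 20.7 in HFD. A count of 0 allows up to 3 counts in a library, which is 0.524 to 1.33 CPM before TMM scaling in those 4, so outside that pair a diet difference of Mark4 at 16 weeks was not detectable at this depth. Its fitted interaction of -7.22 depends on the prior count and is no measure of a fold. Med25, a Mediator subunit, behaved alike, with 60.4 and 46.4 CPM in replicates 1 and 2, 0 to 3.09 in the other 4 and 0 to 1.11 in 16-week HFD, against 19.3 to 36.9 in 4-week CD and 21.1 to 68.0 in 4-week HFD.

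Chromatin modifiers were the list with the most positive calls. Over all genes 1.74% were called positive and 1.92% negative, and the counts of each list below are to be read against these shares. Of 67 tested, 7 had a positive interaction, among them Arid1a, Bptf, Mll1, Chd8, Crebbp and Arid2, and 1 a negative one (Hdac2), and the list median was 0.557 against -0.0856 over all genes. HFD lowered 9 and raised 1 at 4 weeks (all genes 2.02% and 1.48%), where the median was -0.369 against 0.0179. It lowered 4 and raised 1 at 16 weeks (all genes 7.76% and 1.91%, so the share lowered was not above that of all genes), where the median was 0.263 against -0.00335. The 21-library fit called 3 of them (Arid1a, Bptf and Mll1) and the median was 0.607. By role, 4 of 15 nucleosome remodelers, 1 of 16 genes of acetylation and 1 of 10 methyltransferases for H3K4 and H3K36 were positive.

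Arid1a, the DNA-binding subunit of the BAF remodeler, stood at 119, 144, 132, 161 and 78.2 CPM in 4-week CD and at 45.9, 45.5, 49.2, 55.7 and 54.8 in 4-week HFD, with no overlap. After 16 weeks Arid1a read 70.7, 66.4, 59.8, 76.1, 189 and 138 in CD and 88.2 to 194 (median 164) in HFD. Its difference was -1.33 at 4 weeks and 0.66 at 16, and the interaction 1.99 ± 0.39 (edgeR adjusted p = 0.0148) was 1.77 in the 21-library fit (adjusted p = 0.0358). Bptf, the reader subunit of the NURF remodeler, fell at 4 weeks from 64.1 to 176 CPM to 47.0 to 76.3 and read 59.9 to 128 in CD and 99.1 to 157 in HFD at 16 weeks. Mll1 (Kmt2a), an H3K4 methyltransferase, fell from 69.5 to 127 CPM to 40.4 to 58.8 and read 51.4 to 78.5 and 47.2 to 122 at 16 weeks. Hdac2, a histone deacetylase, went the other way, from 56.3 to 105 CPM in CD to 110 to 286 in HFD at 4 weeks and 80.8 to 140 against 59.8 to 114 at 16.

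Markers of RNA quality did not all move the same way at 4 weeks. Of 9 tested, 2 were called lower in 4-week HFD, against 2.02% of all genes, 0 were called higher, and 4 were positive. The 5 nuclear RNAs had a median of -1.25 and the 4 mitochondrial ones a median of 0.741. The nuclear RNAs Meg3 and Xist were lower in 4-week HFD by -1.78 and -1.63 on the log2 scale (edgeR adjusted p = 0.00981 and 0.00896), and the interaction of Xist, 1.13 with all libraries, was 1.62 and called in the 21-library fit (adjusted p = 0.0483). Mitochondrial transcripts made up 0.828% to 7.72% of counts in 4-week CD, 3.57% to 5.25% in 4-week HFD, 0.902% to 2.31% in 16-week CD and 0.786% to 1.53% in 16-week HFD. The part of RNA quality in the fall of chromatin modifiers was not tested.

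In 2 lists of the secretory pathway the genes called had negative interactions, and most members were not called. In the list of vesicle traffic and small GTPases, 6 of 56 had a negative interaction and none a positive one (Sec24d, Kdelr1, Tmed7, Arf1, Tm9sf1 and Tm9sf2), with a median of -0.472, against 1.92% negative and a median of -0.0856 over all genes. HFD raised 6 and lowered none at 4 weeks with a median of 0.418 (all genes 1.48% raised). The 4 lowered at 16 weeks are near the 7.76% of all genes, and the median there was 0.0332. In the list of the unfolded protein response, which matches folding capacity to load in the endoplasmic reticulum (ER), 3 of 32 were negative (Serp1, Dnajb9 and Eif2ak3) and none positive, with a median of -0.443, against the same 1.92%. In the 21-library fit Serp1 alone had a called interaction among the 2 lists, with medians of -0.563 and -0.445. There HFD raised 11 vesicle genes at 4 weeks, beside 423 of all 12280 genes.

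Serp1, which stabilizes membrane proteins during ER stress, stood at 262, 188, 165, 106 and 192 CPM in 4-week CD and at 449, 300, 275, 380 and 552 in 4-week HFD, with no overlap. After 16 weeks Serp1 read 255, 300, 243, 418, 163 and 248 in CD and 128 to 293 (median 162) in HFD. It was 2.14-fold higher in HFD at 4 weeks by the fitted difference (edgeR adjusted p = 0.0321), its log2 difference was -0.59 at 16, and the interaction of -1.69 ± 0.38 (adjusted p = 0.0231) was -1.68 in the 21-library fit (adjusted p = 0.0447). Dnajb9, an ER chaperone that serves BiP, rose from 46.4, 12.4, 52.6, 25.9 and 57.3 CPM to 105, 72.7, 76.9, 91.2 and 112 at 4 weeks, again with no overlap, and read 42.2 to 104 in CD and 23.3 to 79.7 in HFD at 16 weeks. The interaction of Dnajb9 was -1.56, and -1.63 in the 21-library fit, where it was not called (edgeR adjusted p = 0.0663). Sec24d, a cargo adaptor of COPII vesicles that leave the ER, read 3.55 to 32.2 CPM in 4-week CD and 25.7 to 71.0 in 4-week HFD. At 16 weeks it read 56.2 and 54.4 CPM in CD replicates 1 and 2, 18.6 to 38.9 in the other 4 and 14.8 to 28.4 in HFD, and its interaction of -2.23 ± 0.52 was -1.78 and not called without the pair (adjusted p = 0.072).

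Of 50 lysosomal genes tested, 5 had a negative interaction and none a positive one, against 1.92% and 1.74% of all genes, with a median of -0.53. HFD raised 6 at 4 weeks and lowered none, against 1.48% and 2.02% of all genes, with a median of 0.472. The 4 lowered at 16 weeks are near the 7.76% of all genes. Scarb2, a lysosomal membrane protein, turned mainly through its 4-week rise, with a log2 diet difference of 1.15 at 4 weeks (edgeR adjusted p = 0.0274) and -0.34 at 16, and an interaction of -1.48. Gaa and Man2b1, which digest glycogen and mannose chains, turned through the 16-week fall, with log2 differences of -1.80 and -1.09 at 16 weeks. Without the pair these 16-week differences were -0.28 and -0.36, and the interaction was -1.33 for Scarb2, -0.89 for Gaa and -0.82 for Man2b1. None of the 5 was called in the 21-library fit, where the median was -0.543. There HFD raised 8 lysosomal genes at 4 weeks, beside 423 of all 12280 genes.

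In the hypoxia list, 2 of 20 genes had a positive interaction in both fits, Vegfa and Egln1, against 1.74% of all genes with 23 libraries and 0.529% with 21, and the list median was -0.0339. Egln1, the prolyl hydroxylase that marks HIF1A for degradation, stood at 43.9, 51.5, 43.7, 33.6 and 35.5 CPM in 4-week CD and at 14.2, 16.2, 14.8, 14.4 and 13 in 4-week HFD, with no overlap. At 16 weeks it read 14.5 CPM in both CD replicates 1 and 2, 43.3 to 62.4 in the other 4 and 27.6 to 65.8 (median 55.3) in HFD. Its 4-week difference was -1.52 (edgeR adjusted p = 0.0101) and its 16-week difference 0.38, which was -0.02 without the pair, and the interaction of 1.90 ± 0.43 was 1.49 there (adjusted p = 0.0358). Hif1a itself had an interaction of -0.94 that was not called (edgeR adjusted p = 0.122).

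The windows before the transcription starts of 3 of these genes are shown because the unfolded protein response and the hypoxia response both read elements with an ACGTG core. They are the 250 bases before the most upstream annotated start (RefSeq, GRCm38.p6), 5′ to 3′ on the gene's strand, with ACGTG on either strand in capitals.
Serp1 (chr3:58525885-58526134, minus strand): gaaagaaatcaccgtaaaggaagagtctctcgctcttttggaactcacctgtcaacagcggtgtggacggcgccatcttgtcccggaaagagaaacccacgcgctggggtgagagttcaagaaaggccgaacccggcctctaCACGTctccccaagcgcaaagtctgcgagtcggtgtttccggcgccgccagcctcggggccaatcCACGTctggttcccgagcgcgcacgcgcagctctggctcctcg
Sec24d (chr3:123267246-123267495, plus strand): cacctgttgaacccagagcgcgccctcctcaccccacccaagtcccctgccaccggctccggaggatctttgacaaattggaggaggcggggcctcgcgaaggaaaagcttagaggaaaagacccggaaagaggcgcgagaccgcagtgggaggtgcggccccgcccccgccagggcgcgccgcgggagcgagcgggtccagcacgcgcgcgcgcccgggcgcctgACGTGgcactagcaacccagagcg
Egln1 (chr8:124949255-124949504, minus strand): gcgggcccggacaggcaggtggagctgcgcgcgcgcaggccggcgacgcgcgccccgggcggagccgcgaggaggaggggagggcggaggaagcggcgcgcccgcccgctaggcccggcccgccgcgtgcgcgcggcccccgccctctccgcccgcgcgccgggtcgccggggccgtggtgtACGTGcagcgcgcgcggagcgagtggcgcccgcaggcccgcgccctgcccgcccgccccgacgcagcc
Over the whole windows, 1 a gene, which run 50 bases past the start, ACGTG lay in 5 of 11 genes with a negative interaction in the vesicle, unfolded protein and lysosome lists (Arf1, Dnajb9, Gaa, Sec24d and Serp1) and, of the positive hypoxia genes, in Egln1 and not in Vegfa. It lay in 26.1% of the 8601 tested genes with a window and in 19.6% of all 27025 genes with one. The longer motif TGACGTGG, which overlaps it, lay in Arf1 and Sec24d and in 0.849% of tested genes, and CACGTGAC in none of these genes and in 4.45% of tested genes. A match is a run of letters and not evidence of binding.

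Among genes of granulosa identity and the FSH response, 2 of 21 had a positive interaction, among them Inhbb, and 3 a negative one (Fshr, Gata4 and Hsd17b1), against 1.74% and 1.92% of all genes, and none was called in the 21-library fit. Fshr, the receptor for FSH, read 6.35, 0.592, 3.26, 4.20 and 12.4 CPM in 4-week CD. The 4-week HFD libraries read 26.4, 23, 22, 14 and 22.1, with no overlap. After 16 weeks Fshr read 5.56 to 19.9 in CD and 2.29 to 15.5 in HFD. Its 4-week difference of 1.91 (edgeR adjusted p = 0.0294) and its interaction of -2.67 ± 0.65 (adjusted p = 0.0287) were 1.90 and -2.52 in the 21-library fit, the latter with an adjusted p of 0.0661. Hsd17b1, which makes estradiol from estrone, and Gata4, a granulosa transcription factor, were lower in HFD at 16 weeks by -1.03 and -1.84, and Gata4 by only -0.13 without the pair.

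In lipid handling, Pnpla2, the first lipase of stored triglyceride, and Gpam, the first acyltransferase of its synthesis, had negative interactions of -2.70 and -2.09, and Lpl, which releases fatty acids from the triglyceride of lipoproteins, a positive one of 1.14. The lipid droplet and triglyceride list thus had 1 positive and 2 negative calls of 23, against 3.66% of all genes called either way. Scarb1, the HDL receptor that supplies cholesterol for steroids, was negative at -2.34. Fatty acid beta-oxidation had 1 negative call of 26 (Hsd17b4), near the 3.66% of all genes called, with a median of -0.451, and fatty acid synthesis and desaturation had none of 20 in either direction. None of these 5 genes was called in the 21-library fit, where Pnpla2 was at -1.38.

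The components of the NLRP3 inflammasome, the caspase-1 platform that matures IL-1β and IL-18, and the genes around it were described by a list of 19. Of these 19 listed genes all had reads and 15 passed the filter on low counts, and none had a called interaction in either fit. The list median was -0.279 with all libraries and -0.283 in the 21-library fit. At 4 weeks HFD raised 1 of the 15, against 1.48% of all genes, and at 16 weeks it lowered 2, against 7.76% of all genes. Txnip, which binds NLRP3 under oxidative stress, rose by 1.63 at 4 weeks (edgeR adjusted p = 0.0462). Rela and Gsdmd, the NF-κB subunit and the pore-forming gasdermin, fell by 1.35 and 1.14 at 16 weeks. These differences of Rela and Gsdmd were -0.52 and -1.19 in the 21-library fit, and neither was called. Nlrp3 itself had 1 read in the 23 libraries together and Tnf had 3. Il10 had 0, 1, 1 and 17 reads and Il1b 12, 32, 18 and 5 reads in 4-week CD, 4-week HFD, 16-week CD and 16-week HFD. The interaction of Il1b on the log2(RPM + 1) scale was -0.132 (two-sided exact permutation test of diet labels within duration, p = 0.831). The exact permutation p was 0.462 for Nlrp3, 1 for Tnf and 0.67 for Il10, so no change could be detected at this depth.

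Markers of macrophages and neutrophils gave no called interaction among 19 tested. Of these, 16 were positive, with a median of 0.715 (all genes -0.0856) that was 0.595 in the 21-library fit. The 16 macrophage genes had a median of 0.725. S100a8, the 1 neutrophil gene tested, was lower in HFD at both durations, by -2 and -2.27, with an interaction of -0.27. The neutrophil genes S100a9, Csf3r and Cxcr2, too low to test, also had lower means in HFD at both durations. The whole list of 27 summed to 112 to 554 CPM in 4-week CD, 89.3 to 481 in 4-week HFD, 84.6 to 596 in 16-week CD and 192 to 959 in 16-week HFD, with 1 marker at 0 in each group. C3ar1, a complement receptor, and Ccl7, a monocyte-attracting chemokine, rose with HFD at 16 weeks by 1.53 and 2.96. Both missed the interaction threshold (edgeR adjusted p = 0.101 and 0.139). Ccl7 had 195 reads in 16-week HFD replicate 15, 4 to 50 in the other libraries of that group and 0 to 27 in 16-week CD. The 16-week differences of C3ar1 and Ccl7 were 1.68 and 2.45 in the 21-library fit, and neither was called. Fewer cells of a type and less RNA per cell cannot be told apart in such libraries.

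Of 14 genes that the study picked for a shared change with leptin and 4-week HFD, 7 were called in the interaction, 3 positive (Zc3h11a, Slc22a15 and Auts2) and 4 negative (Serp1, Arf1, Trpc4ap and Tm9sf2). They were chosen on the 4-week libraries used here, so that arm of their interaction is not independent evidence. At 16 weeks, with all 23 libraries, all 7 genes that were positive at 4 weeks had a negative difference (median -0.535), and all 7 that were negative had a positive one (median 0.809). This includes 16-week CD replicates 1 and 2, which resembled 4-week HFD, so the 16-week signs are not free of that pair. Of the 14, 1 was called higher and 1 lower at 16 weeks, against 1.91% and 7.76% of all genes, and 0 in the 21-library fit. There the 16-week median of the 14 was 0.183, against 0.282. That median pools genes of both signs, so it cannot show whether the 16-week signs hold without the pair. Zc3h11a, an mRNA export factor, read 162, 220, 193, 222 and 134 CPM in 4-week CD. The 4-week HFD libraries read 105, 101, 105, 119 and 111, with no overlap. After 16 weeks Zc3h11a read 129 and 136 CPM in CD replicates 1 and 2, 288 to 451 in the other 4 and 416 to 591 (median 511) in HFD, and its interaction of 1.62 was 1.28 and still called without the pair (edgeR adjusted p = 0.0447). Its 16-week counts ran close to those of Zbed6, and whether the 2 genes share reads was not tested. Only Zc3h11a and Serp1 of the 14 had a called interaction in the 21-library fit.

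**Figure D5:**
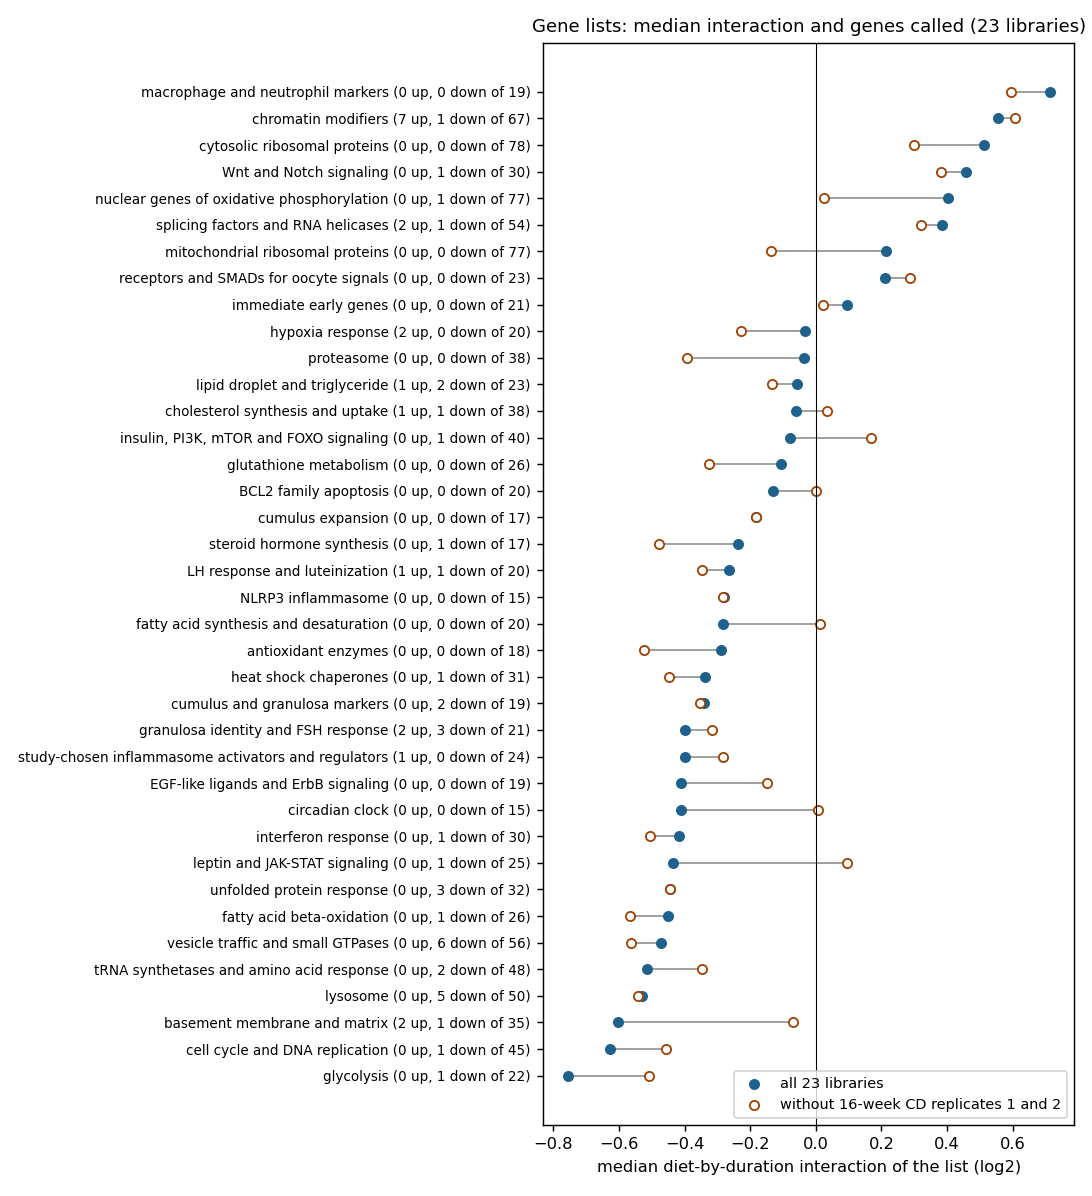
Median diet-by-duration interaction (log2, x axis) of the 38 gene lists with at least 15 genes tested, with all 23 libraries (filled) and without 16-week CD replicates 1 and 2 (open), and the genes called up or down in brackets. Chromatin modifiers lie at 0.557 and 0.607, and the lysosome list at -0.53 and -0.543.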

How the data were processed

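CC libraries were made by Smart-seq2. The deposited table holds raw counts per gene (25965 entries), and the submitters' processing notes name Trim Galore 0.4.2, HISAT2 2.0.5 and GRCm38. The program that the authors used to make the counts is not given in the sources used here.

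Groups came from the sample titles. Genes were filtered with filterByExpr over the 4 groups, scaled by TMM and fitted with edgeR 4.0.16 (quasi-likelihood F test, robust, R 4.3.3) in 23 libraries with 19 residual degrees of freedom, and Benjamini-Hochberg adjusted p under 0.05 was called. Genes with too few reads were tested by exact permutation of diet labels within duration. Totals of 1330297 to 12641896 counts set the precision, and a count of 0 allows up to 3 counts (95%, counting error only). None of 56 replicate pairs was identical (smallest chi-square per degree of freedom 3.26). On simulated counts for 12235 genes the interaction step recovered 55% of 100 genes changed by 2 on the log2 scale and 95% of 100 changed by 4. It also called 10 unchanged genes in that run, and 0 genes in a run with no change. The simulated libraries were drawn independently, without near-identical sets, so these shares may not hold for the real libraries.

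Turned means opposite signs of the diet difference at the 2 durations, faded called at 4 weeks with the same sign, late called at 16 weeks with the same sign. Named genes were the 10 largest interactions in each direction with a mean of at least 10 RPM in 1 group, up to 4 of smallest p in each class, list members called, up to 4 of smallest p in each list, and the inflammasome, study-chosen and study-named lists. The members and the 47 gene lists were chosen with earlier results of these data known. The promoter search (1 window a gene, at its most upstream start), the fit without 16-week CD replicates 1 and 2 and the summing of near-identical libraries were chosen after values were seen. Alternatives were DESeq2 1.42.0, limma 3.58.1 (voom with quality weights), other scalings, filters, thresholds, drawn-down counts, all 34 libraries, a replicate block and each library left out. Promoters came from RefSeq and gene lengths from GENCODE. A few genes that the naming rule picks are not reported here.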

Additional observations from a re-analysis of the deposited data

Results flagged for a closer look

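By the edgeR interaction term the diet response differed between the durations in 448 genes. Among the genes described above, the log2 interaction was positive for Capn12 (3.28), Phox2a (3.22), Zfhx3 (2.57), Fads6 (2.48), Rhou (2.28), Nav1 (2.10), Arid1a (1.99), Unc13a (1.96), Vegfa (1.91), Egln1 (1.90), Zbed6 (1.75), Bptf (1.73), Zc3h11a (1.62), Slc36a1 (1.57), Mll1 (1.34) and Ankrd40 (1.30). It was negative for Mark4 (-7.22), Med25 (-5.90), Fshr (-2.67), Cxcr7 (-2.35), Sec24d (-2.23), Abca6 (-2.04), Serp1 (-1.69), Dnajb9 (-1.56), Igfbp4 (-1.55) and Hdac2 (-1.36).

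In 2 of 104 groups of libraries a single library stood apart from the rest by Dixon's criterion, which chance gives in about 1 of 20 groups. Vegfa read 38.6 CPM in 4-week HFD replicate 13, and Mark4 read 0.222 CPM in 16-week HFD replicate 6, where the other 6 libraries were at 0.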

How the results depend on the processing

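Counts are given in the order interaction, 4-week diet effect, 16-week diet effect, where the main counts were 448, 428 and 1183. Genes that turned numbered 427 and list members called 56. DESeq2 gave 1165, 903 and 1936, with 1052 turned and 149 list members. The limma-voom fit with quality weights gave 2289, 4031 and 62, with 2078 turned, 328 list members and 5936 genes for duration in CD. Total counts alone gave 873 interaction genes, 3515 at 16 weeks, 784 turned and 115 list members. Without a filter 36 list members were called, and with at least 10 counts in every library 525 genes at 16 weeks and 3667 for duration in HFD. All 34 libraries in 1 fit gave 157 interaction genes, 69 at 4 weeks, 154 turned and 18 list members. Counts drawn down to the shallowest library gave 80, 128 and 353, with 2043 for duration in CD, 78 turned and 11 list members. At an adjusted p of 0.1 the counts were 1316, 912 and 2107, with 1183 turned and 157 list members, and at an unadjusted p of 0.05 they were 2863, 2444 and 3454, with 2392 and 322. The 2 groups of 16 weeks fitted alone gave 3 genes.

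Without 16-week CD replicates 1 and 2 the counts were 89, 889 and 1, with 5988 for duration in CD, 82 turned and 10 list members. With near-identical libraries summed they were 0, 1 and 8, with 3171 for duration in HFD, 0 turned and 0 list members, where edgeR's smallest adjusted p for the interaction was 0.331. Both settings were chosen after seeing the data. Leaving out 1 library gave 69 to 1685 interaction genes, 113 to 1214 at 4 weeks, 65 to 2939 at 16 weeks, 63 to 1490 turned and 5 to 208 list members.

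With the replicate block, which leaves 4 residual degrees of freedom, the counts were 10, 1 and 0 (990 genes with an unadjusted p under 0.05 at 16 weeks), with 728 and 1207 for duration in CD and HFD, 10 turned and 1 list member. The numbers did not pair the libraries: same-numbered libraries correlated at -0.27 to 0.132, 3 of 7 pairs over 0.1, and 0 of 14 libraries correlated best with its own number.

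Of 115 named genes 88 were called, none of these 88 changed sign in any alternative run, and 25 kept the call with each library left out. The alternatives reuse the libraries on which the 88 were called, so the kept signs are not independent support. Genes that were not called and changed sign were Il18 (0.482 with limma-voom, 0.0179 with the block and -0.429 to 0.363 without 1 library), P2rx7 (0.161 with limma-voom and 0.421 drawn down), Nfkb1 (-0.0169 with total counts and -0.201 drawn down), Nek7 (0.331 drawn down), Casp1 (-4.50 with the block), Il1b (-0.519 to 0.218 without 1 library) and Il10 (-0.0191 to 0.348 without 1 library, negative without 16-week HFD replicate 15). Where the counts moved, the cause was not tested.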

Other observations

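Of 45 cell cycle and DNA replication genes tested, 1 had a negative interaction (Bub1b), near the 1.92% of all genes, and the list median was -0.628. HFD raised 5 and lowered none at 4 weeks, against 1.48% and 2.02% of all genes. In the 21-library fit it raised 8, beside 423 of all 12280 genes, and the interaction median was -0.458 with none called. Glycolysis had 1 negative call of 22 (Gapdh) and a median of -0.757, which was -0.51 without 16-week CD replicates 1 and 2. Cytosolic ribosomal proteins had no call of 78 and a median of 0.513, with 60 positive, and 0.299 without the pair. Nuclear genes of oxidative phosphorylation had 1 negative call of 77 (Atp5b), and their median of 0.403 was 0.0261 without the pair.

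Genes with a positive interaction had a median longest transcript of 5080 bases and a median span of 46.8 kb, against 3395 bases and 22.8 kb over all genes tested and 3362 bases and 24.2 kb for genes with a negative one. In the 21-library fit the positive genes had medians of 5007 bases and 22.8 kb. Transcripts were matched for 90.5% to 95.7% of these sets with all libraries.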
